A study of Homo sapiens with 24 samples.

Results

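The G2 and mitosis genes described here are 50 genes whose products carry a cell from the end of DNA replication through division: mitotic cyclins and kinases, spindle checkpoint proteins, kinetochore and kinesin proteins, and the factors of cytokinesis. They were chosen by symbol from a fixed list, with no measured value in the rule but with earlier results of these data known. All 50 were among the 15862 genes of the deposited expression table. Polyadenylated RNA was sequenced in 24 libraries from LOUCY and JURKAT cells, a pair of established human T-cell acute lymphoblastic leukaemia lines, in 2 independent experiments. The groups were untreated LOUCY (6 libraries), untreated JURKAT (6 libraries), and 3 groups of 4 LOUCY libraries each, treated over 24 h with 0.05% DMSO as vehicle, with JQ1 at 250 nM or with I-BET151 at 500 nM. LOUCY is commonly taken to represent leukaemia of early T-cell precursors, and each line is a single long-cultured isolate, which limits it as a model of the disease. JQ1 and I-BET151 are inhibitors of the BET bromodomain proteins, readers of acetylated histones that aid transcription. JQ1 is a thienotriazolodiazepine whose triazole mimics acetyl-lysine, and in I-BET151 a dimethylisoxazole does so. The wider study concerns Ezh2 and Runx1 mutations in leukaemia of early thymic progenitors.

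As background, entry into mitosis is driven by CDK1 bound to cyclin B, which CDC25 phosphatases activate and PLK1 and the Aurora kinases reinforce. The spindle checkpoint holds cells until every kinetochore is attached, after which CDC20 and the anaphase-promoting complex mark securin and cyclin B for destruction, separase opens cohesin and the chromatids part. These genes are transcribed mostly late in the cell cycle, through CCAAT boxes bound by NF-Y and through the cell cycle homology region. That element is bound by the DREAM complex, and by MuvB joined with B-MYB or FOXM1. In bulk RNA a larger share of cells in G2 or mitosis and more RNA of these genes per cell cannot be told apart.

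The recovered depth ranged from 4381134 to 7074198 reads per library over all listed genes, and the library with the fewest reads of a member held 28 reads of SPC24. The trend of expression with gene GC content was measured in each library relative to the mean of its own group, so it shows no difference between groups. A set of 3 libraries stood apart in their trend of expression with the GC content of the gene (log2 units per 10 percentage points of GC): I-BET151 experiment 2 replicate 1 at -0.313, DMSO experiment 2 replicate 1 at -0.281 and untreated LOUCY experiment 2 replicate 2 at -0.227, against -0.125 to 0.155 in the other libraries. Genes of low GC read high in such a library, and the members ranged from 34.2% GC (KIF20B) to 59.6% (INCENP), so the counts of members called with each treatment are also given without them. The labels were checked against T-cell markers: CD3D was at 1531 RPKM in untreated LOUCY and 914.8 in JURKAT, while CD2 was at 0.0562 and CD5 at 0.305 in LOUCY. RPKM scales reads by gene length and by library size. Nothing in the labels says that numbered replicates were separate cultures, so p-values measure the spread between libraries, part of which may be technical.

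Every member was expressed in every library and passed the low-value filter in both fits. The mean level over the 6 untreated LOUCY libraries ran from 2.33 RPKM for INCENP, the scaffold of the chromosomal passenger complex, to 491.2 RPKM for UBE2C, the ubiquitin-conjugating enzyme of the anaphase-promoting complex. The median over the 50 member means was 54.7 RPKM in untreated LOUCY, 52.9 in JURKAT, 54.5 with DMSO, 55.4 with JQ1 and 55.5 with I-BET151. The median of genes at or above 1 RPKM was 10.6 RPKM in untreated LOUCY and 9.89 in JURKAT. In JURKAT the highest member was CCNB1, the main mitotic cyclin, at 281.8 ± 33.3 RPKM (SD, n = 6). The share of each library's reads that fell in the 50 genes ranged from 1.04% to 1.56%, and both JQ1 libraries of experiment 1, at 1.42% and 1.56%, were among the highest.

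**Figure D1:**
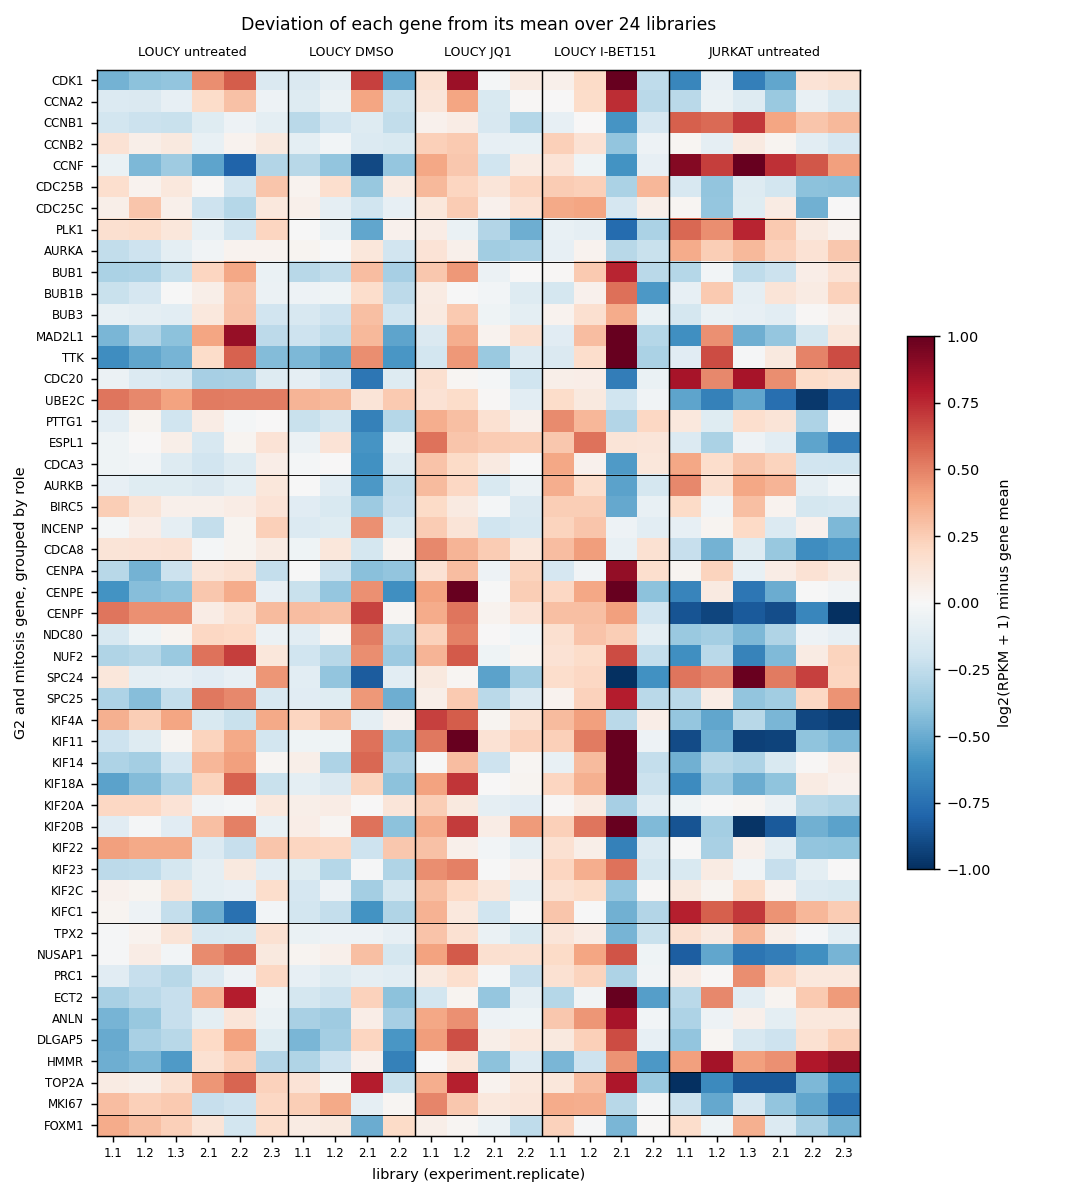
Deviation of each of the 50 genes (rows, grouped by role) from its own mean over 24 libraries (columns, labelled experiment.replicate within each group), in log2(RPKM + 1), with red above and blue below the mean. JURKAT columns are red for CCNF, CCNB1, CDC20, KIFC1 and HMMR and blue for UBE2C, CENPF and TOP2A, and I-BET151 library 2.1 is red for many low-GC genes such as MAD2L1, KIF11 and KIF18A.

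The members share promoter letters that the rule did not use. RefSeq promoter windows of GRCh38.p14, from 250 bases before to 50 bases after the start of each gene, were found for 43 of the 50 members (not for AURKA, FOXM1, TPX2, UBE2C, BUB3, TTK and BIRC5) and for 27305 genes in all. The cell cycle homology element TTTGAA, searched on both strands, was in 31 of the 43 member windows (72.1%), against 15.4% of all windows and 10.0% of the 8489 windows of genes tested in the expression fits. Within 50 bases before to 25 bases after the start the element was in 55.8% of member windows and 3.81% of all windows. CCAAT, on both strands, was in 35 member windows (81.4%) against 35.7% of all, most often 75 to 51 bases before the start (53.5% of member windows against 7.87%). Both elements stood together in 27 member windows (62.8%) against 6.08% of all. In 26 members a CCAAT stood upstream of TTTGAA, on either strand. The closest such pair of each member was 9 to 253 bases apart between first bases (median 34.5), and 8 of the 26 lay at 30 to 50 bases. The variant TTTAAA was in 13 member windows (30.2%, against 12.3% of all). The E2F site letters TTTCCCGC and TTTGGCGC, which belong to genes of the G1 to S transition, were in 1 member window each (2.33%). They were in 1.66% and 0.659% of all windows and in 2.84% and 1.19% of the windows of tested genes. A match of letters is a description, and no binding was measured.

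**Figure D2:**
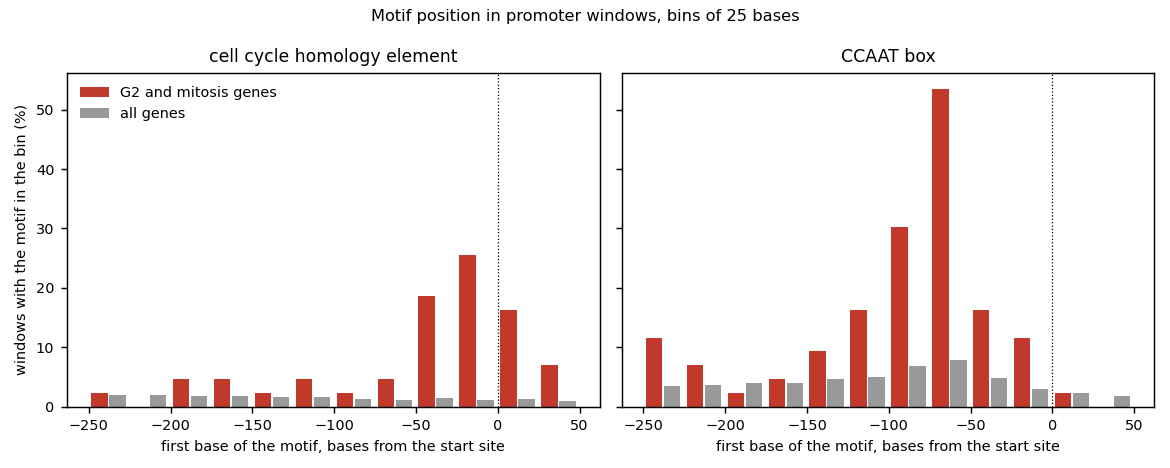
Share of promoter windows (per cent) with TTTGAA (left) or CCAAT (right) starting in each bin of 25 bases, by distance from the start site, for the 43 members with a window (red) and all 27305 genes with one (grey). TTTGAA in members gathers from 50 bases before to 25 bases after the start, and CCAAT peaks in the bin from 75 to 51 bases before it, at 53.5%.

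A set of 6 windows is printed 5′ to 3′ along the gene's own strand, with the letters of TTTGAA, of its variant TTTAAA and of the CCAAT box in capitals, on whichever strand they read. CCNB1 and CCNB2, the B-type cyclins, show the usual layout, in which CCAAT boxes precede the element that lies about 30 bases before the start (TTTAAA from -30 in CCNB1, TTTGAA from -29 in CCNB2). PTTG1 (securin), ESPL1 (separase) and KIF23 (a kinesin of the central spindle) are the members past the threshold with both inhibitors, and TOP2A (topoisomerase II alpha), among the members highest in LOUCY over JURKAT, has its TTTGAA matches far upstream. The windows are chr5:69166900-69167199 (+) for CCNB1, chr15:59104896-59105195 (+) for CCNB2, chr5:160421605-160421904 (+) for PTTG1, chr12:53268049-53268348 (+) for ESPL1, chr15:69414099-69414398 (+) for KIF23 and chr17:40417847-40418146 (-) for TOP2A.
CCNB1: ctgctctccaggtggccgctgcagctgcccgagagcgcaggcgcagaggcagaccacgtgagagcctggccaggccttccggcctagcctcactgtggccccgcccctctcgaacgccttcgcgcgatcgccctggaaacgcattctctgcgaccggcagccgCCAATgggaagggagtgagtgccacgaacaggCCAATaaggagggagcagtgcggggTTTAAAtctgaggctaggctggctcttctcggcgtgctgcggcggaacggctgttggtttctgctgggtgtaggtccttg
CCNB2: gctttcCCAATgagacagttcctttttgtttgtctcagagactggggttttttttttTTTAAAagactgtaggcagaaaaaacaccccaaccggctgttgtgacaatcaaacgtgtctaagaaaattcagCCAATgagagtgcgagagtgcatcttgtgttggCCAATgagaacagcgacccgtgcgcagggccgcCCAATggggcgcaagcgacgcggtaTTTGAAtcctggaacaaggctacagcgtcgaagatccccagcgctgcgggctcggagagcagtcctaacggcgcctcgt
PTTG1: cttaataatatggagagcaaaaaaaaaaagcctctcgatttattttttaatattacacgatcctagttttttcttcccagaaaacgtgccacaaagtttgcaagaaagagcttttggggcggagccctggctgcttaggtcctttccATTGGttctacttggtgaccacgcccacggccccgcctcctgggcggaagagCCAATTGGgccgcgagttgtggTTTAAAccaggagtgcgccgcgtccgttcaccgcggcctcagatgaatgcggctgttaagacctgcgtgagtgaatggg
ESPL1: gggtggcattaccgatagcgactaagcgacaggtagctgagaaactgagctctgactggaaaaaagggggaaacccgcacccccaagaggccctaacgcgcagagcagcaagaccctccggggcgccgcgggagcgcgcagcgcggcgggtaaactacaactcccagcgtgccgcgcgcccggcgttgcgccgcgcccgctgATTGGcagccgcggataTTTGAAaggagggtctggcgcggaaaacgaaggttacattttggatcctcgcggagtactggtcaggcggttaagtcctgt
KIF23: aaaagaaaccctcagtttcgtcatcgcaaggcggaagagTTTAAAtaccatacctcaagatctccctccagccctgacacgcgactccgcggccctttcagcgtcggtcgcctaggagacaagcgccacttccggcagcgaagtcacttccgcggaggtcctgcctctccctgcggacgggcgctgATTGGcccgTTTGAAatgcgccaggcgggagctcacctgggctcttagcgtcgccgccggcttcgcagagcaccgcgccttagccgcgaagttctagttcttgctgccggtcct
TOP2A: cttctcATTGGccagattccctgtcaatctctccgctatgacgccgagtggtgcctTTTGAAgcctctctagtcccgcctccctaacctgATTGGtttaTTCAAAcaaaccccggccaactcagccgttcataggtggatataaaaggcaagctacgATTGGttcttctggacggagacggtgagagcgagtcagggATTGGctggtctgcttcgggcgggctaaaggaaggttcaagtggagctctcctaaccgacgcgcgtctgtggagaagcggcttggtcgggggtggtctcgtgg
Called members were found with and without TTTGAA. With JQ1, 6 of the 31 members with the element rose and 2 of the 12 without it, with median log2 changes of 0.27 and 0.23. Between the lines, 11 of the 31 were higher and 7 lower in LOUCY, and 3 of the 12 were higher and 3 lower.

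Between the untreated lines the members differed in both directions, and of the roles with more than 2 genes none moved as a whole. LOUCY held more RNA of UBE2C, CENPF, TOP2A and NUSAP1, and JURKAT held more of CCNF, HMMR, KIFC1, CDC20 and CCNB1. By limma on log2(RPKM + 1), with a Benjamini-Hochberg adjusted p under 0.05 as the threshold, 16 of the 50 members were higher and 12 lower in LOUCY. Of the 11978 genes tested, 73.1% were called, 35.5% higher and 37.5% lower, so the members were called less often than genes in general (56.0% against 73.1%), a difference that was not tested. The median log2 difference was 0.07 over the members and -0.02 over all genes tested, and the members' median was 0.04 without LOUCY experiment 2 replicate 2, -0.04 within experiment 1 and 0.18 within experiment 2. In 14 members the 6 libraries of one line lay entirely outside those of the other, 8 higher and 6 lower in LOUCY, beside 49.4% of all genes tested (24.1% higher and 25.4% lower).

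Among the genes of CDK1 regulation, 1 of 7 was higher and 2 lower in LOUCY. CCNF, the F-box cyclin that marks mitotic proteins for destruction, ranged from 9.70 to 16.8 RPKM in LOUCY (median 13.1) and from 23.8 to 39.1 in JURKAT (median 29.5). CCNB1, the cyclin partner of CDK1 at mitotic entry, ranged from 171.9 to 194.1 RPKM in LOUCY (median 180.6) and from 243.9 to 327.7 in JURKAT (median 281.1). The CCNF and CCNB1 libraries of the lines did not overlap, and JURKAT was higher in each. The difference was -1.16 (log2, SE 0.11, limma adjusted p = 1.04e-07) for CCNF and -0.63 (log2, SE 0.08, limma adjusted p = 2.55e-06) for CCNB1. CDC25B, a phosphatase that activates CDK1, was higher in LOUCY (0.35, log2, SE 0.09, limma adjusted p = 0.00262). CDK1 itself, at 199.9 ± 70.5 RPKM in LOUCY and 169.0 ± 45.7 in JURKAT (SD, n = 6 each), did not pass, and neither did its S and G2 phase partner CCNA2 nor CCNB2 (adjusted p = 0.219, 0.0638 and 0.174 by limma). CDC25C, another phosphatase of CDK1, was at 0.15 and did not pass.

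Both kinases of mitotic entry and spindle poles were lower in LOUCY, at -0.30 (log2, SE 0.09, limma adjusted p = 0.00746) for PLK1 and -0.35 (log2, SE 0.07, limma adjusted p = 4.03e-04) for AURKA, which builds spindle poles. PLK1 lay from 88.0 to 117.6 RPKM (median 111.6) in LOUCY and from 103.8 to 172.3 RPKM (median 130.8) in JURKAT, so its libraries overlapped, while those of AURKA did not. Of the 5 spindle checkpoint genes only TTK, the kinase that starts checkpoint signalling, passed (-0.51, log2, SE 0.17, limma adjusted p = 0.0153). BUB1, BUB1B, BUB3 and MAD2L1, which hold the anaphase-promoting complex in check, differed by 0.04, -0.11, 0.05 and 0.16 on the log2 scale and did not pass.

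The enzymes of anaphase went in opposite directions. UBE2C, the ubiquitin-conjugating enzyme that works with the anaphase-promoting complex, ranged from 460.1 to 504.5 RPKM in LOUCY (median 497.4) and from 178.5 to 243.4 in JURKAT (median 212.2). CDC20, the activator of that complex in mitosis, ranged from 130.9 to 158.3 RPKM in LOUCY (median 148.4) and from 184.5 to 292.7 in JURKAT (median 228.9). UBE2C was higher in every LOUCY library and CDC20 in every JURKAT library. The difference was 1.21 (log2, SE 0.07, limma adjusted p = 7.90e-10) for UBE2C and -0.68 (log2, SE 0.09, limma adjusted p = 5.50e-06) for CDC20. ESPL1 was also higher in LOUCY (0.31, log2, SE 0.11, limma adjusted p = 0.0183), whereas PTTG1, its inhibitor, was at 143.6 ± 9.83 and 147.6 ± 17.9 RPKM (SD, n = 6 each) and did not pass. CDCA3, a trigger of mitotic entry, was at -0.19 and did not pass. UBE2C has 4 named pseudogenes in the GENCODE v29 annotation, and no source used here says how multi-mapping reads were counted.

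Of the 4 chromosomal passenger genes, whose complex corrects wrong attachments, CDCA8 (borealin) was higher in LOUCY (0.48, log2, SE 0.07, limma adjusted p = 2.63e-05) and the kinase AURKB lower (-0.28, log2, SE 0.10, limma adjusted p = 0.0152). BIRC5 (survivin) and INCENP, their partners, differed by 0.09 and 0.06 and did not pass. Of 7 kinetochore and centromere genes 3 were higher and 2 lower. CENPF, a large protein of the outer kinetochore, ranged from 31.1 to 43.3 RPKM in LOUCY (median 38.9) and from 14.0 to 18.5 in JURKAT (median 15.7). Every LOUCY library was above every JURKAT library, a difference of 1.20 (log2, SE 0.09, limma adjusted p = 7.02e-09). NDC80, which grips the microtubule, and its partner NUF2 were higher by 0.29 and 0.35, while SPC24 of the same complex was lower (-0.54, log2, SE 0.13, limma adjusted p = 0.00127). CENPA, the centromeric histone, was lower (-0.24, log2, SE 0.10, limma adjusted p = 0.0392), and CENPE, a kinetochore motor, and SPC25, the partner of SPC24, differed by 0.16 and 0.03 and did not pass.

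Of the 10 kinesins 5 were higher and 1 lower in LOUCY, beside 35.5% and 37.5% of all genes. KIF20B (cytokinesis), KIF4A (chromosome compaction and midzone), KIF11 (spindle bipolarity), KIF22 (chromosome arms) and KIF20A (midzone) were higher by 0.75, 0.75, 0.70, 0.38 and 0.21. KIFC1, a minus-end motor that clusters spindle poles, was the kinesin lower in LOUCY (-0.77, log2, SE 0.11, limma adjusted p = 1.32e-05), at 5.57 ± 1.30 against 10.1 ± 1.60 RPKM (SD, n = 6 each). KIF14, KIF18A, KIF23 and KIF2C were at 0.18, 0.18, -0.06 and 0.02 and did not pass. Among 7 genes of spindle assembly and cytokinesis, NUSAP1, a microtubule bundler, was higher (0.83, log2, SE 0.09, limma adjusted p = 7.58e-07), and HMMR, a spindle and centrosome protein, and PRC1, which crosslinks midzone microtubules, were lower (-0.87, log2, SE 0.12, limma adjusted p = 9.37e-06, and -0.26 with adjusted p = 0.0213 by limma). TPX2, the activator of AURKA, differed by -0.09, ANLN by -0.15, DLGAP5 by -0.05 and ECT2, an activator of RhoA in cytokinesis, by -0.09, and none of these passed.

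Both chromosome structure genes were higher in LOUCY. TOP2A, which untangles sister DNA, ranged from 237.3 to 340.4 RPKM in LOUCY (median 259.7) and from 112.9 to 166.4 in JURKAT (median 135.9). The lines did not overlap, and the difference was 0.99 (log2, SE 0.09, limma adjusted p = 6.55e-08). MKI67, the proliferation marker that coats mitotic chromosomes, was higher by 0.52 (SE 0.10, adjusted p = 2.14e-04 by limma) with overlapping libraries. FOXM1, the transcription factor of many of these genes, was higher by 0.25 (adjusted p = 0.0354 by limma).

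**Figure D3:**
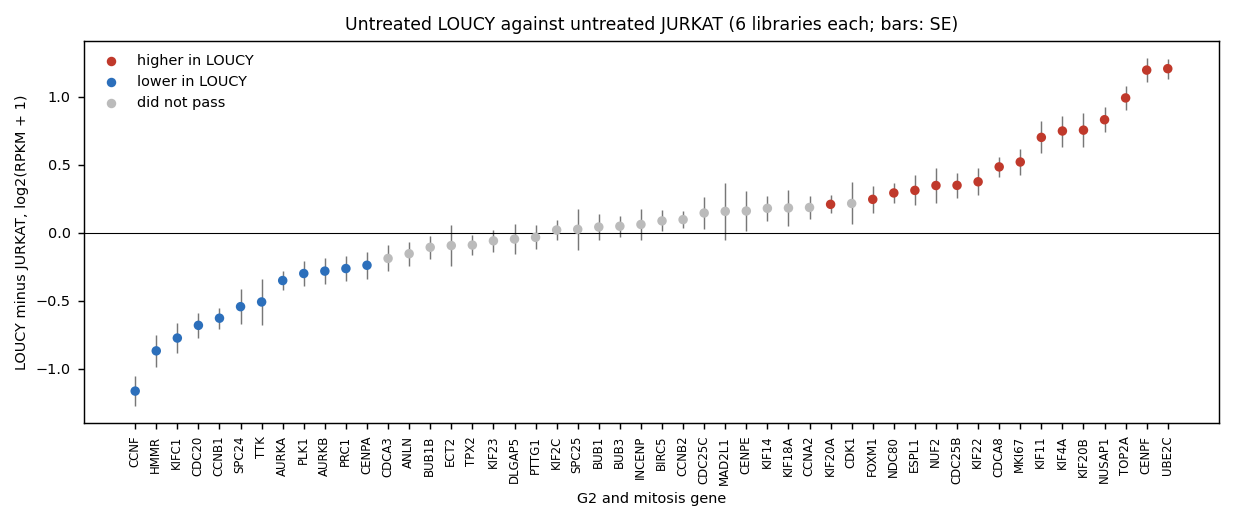
Difference of each of the 50 genes between untreated LOUCY and untreated JURKAT in log2(RPKM + 1), in ascending order, with the standard error as a bar (6 libraries per line). The 16 red genes were higher and the 12 blue genes lower in LOUCY, from CCNF at -1.16 to UBE2C at 1.21.

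Of these 28 line differences, 23 passed without any 1 of the 12 libraries. CENPA lost its call without any of 7 of them (adjusted p up to 0.105) and FOXM1 without any of 6 (up to 0.0919). NUF2 lost it without JURKAT experiment 2 replicate 1 or LOUCY experiment 2 replicate 1 or 2 (0.0512, 0.0541 and 0.0558), PRC1 without replicate 3 of experiment 1 of either line (0.0547 without JURKAT and 0.0535 without LOUCY), and ESPL1 without JURKAT experiment 2 replicate 3 (0.0511). Within experiment 1 alone 12 members were higher and 13 lower, of 61.5% of genes called (30.5% higher and 31.0% lower), and within experiment 2 alone 9 were higher and 5 lower, of 52.5% (24.8% higher and 27.6% lower). The interaction of line and experiment passed in 0 of 50 members (3 at an unadjusted p under 0.05 by limma), of 0.025% of all genes. Over all genes the interaction reached that unadjusted threshold in 982 of 11978. Its estimate was above 0 in 45 of the 50 members, with a median of 0.24 against -0.03 over all genes.

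Genes of the same processes outside the 50 also went both ways. Of 58 other mitotic genes 27 were higher and 13 lower in LOUCY. Among them were FAM64A (1.86) and MAD1L1 (1.52) above and CENPM (-0.75) and MELK (-0.58) below. Of 16 genes of the anaphase-promoting complex and its partners, 2 were higher (CDC16 at 0.92 and FZR1 at 0.34). The 3 lower ones included ANAPC16 (-0.60) and UBE2S (-0.98). Of 20 condensin and cohesin genes 7 were higher, with SMC3 at 1.07 and PDS5B at 0.91, and 3 lower, with RAD21 at -0.89 and CDCA5 at -0.58. Of 23 DREAM and MuvB regulators 9 were higher and 8 lower. E2F8, a repressor, stood at 2.06, E2F3 at 0.79, NFYA, a subunit of the CCAAT-binding factor, at -0.67 and TFDP1, a partner of E2F proteins, at -4.97. E2F1 was higher (0.33) and MYBL2 (B-MYB) did not pass (0.22, adjusted p = 0.0617 by limma). Of 26 G1 and S phase genes 8 were higher and 11 lower, with TK1 at 1.19 and MCM5 at 0.88 above and CDT1 at -1.35 and RRM2 at -0.96 below. Of 5 CDK inhibitor genes tested, CDKN2A (5.65), CDKN2C (2.22), CDKN2D (0.69) and CDKN1A (1.84) were higher and CDKN1B (-1.30) lower. All these values are log2 differences of genes past the threshold unless stated otherwise.

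The vehicle left the members without a call. DMSO against untreated LOUCY passed in 0 of 50 members by limma, and in 0 by limma with voom weights on recovered reads. Each of these fits had 4 members at an unadjusted p under 0.05. In the main fit 0.175% of the 11411 genes tested were called. Of those genes, 1100 had an unadjusted p under 0.05 by limma. The median log2 difference was -0.07 over the members, 43 of which were below 0, and -0.02 over all genes. The members' median was -0.15 without DMSO experiment 2 replicate 1, -0.03 without DMSO experiment 2 replicate 2, 0.02 within experiment 1 and -0.17 within experiment 2. Without the 3 libraries of steep GC trend 0 of 50 members passed (6 at an unadjusted p under 0.05 by limma), of 0.301% of genes called. UBE2C was at 442.4 and 437.2 RPKM in experiment 1 and 380.5 and 419.0 in experiment 2 with DMSO and from 460.1 to 504.5 RPKM (median 497.4) untreated, and BIRC5 was at 133.4 and 129.9 RPKM in experiment 1 and 112.2 and 122.6 in experiment 2 with DMSO and from 149.3 to 171.7 RPKM (median 154.8) untreated. In these 2 of 50 members, and in 2.05% of all genes (2.67% counting both directions), every DMSO library was below every untreated one (limma log2 difference -0.23, adjusted p = 0.296 for UBE2C and -0.33, adjusted p = 0.229 for BIRC5).

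With JQ1, 8 of the 50 members rose and none fell. The rises were of 1.24 to 1.54 times and lay in several roles: the F-box cyclin CCNF, the separation pair PTTG1 and ESPL1, the kinesins KIF23, KIFC1 and KIF2C, the spindle protein DLGAP5 and the passenger subunit CDCA8. Of the 11411 genes tested against DMSO, 26.0% were called, 10.1% higher and 15.9% lower, so the 8 of 50 members that rose stood near the background of rises, and the absence of a fall stood beside 15.9% of falls among all genes. At an unadjusted p under 0.05 by limma, 13 members were higher and 1 lower, beside 1758 higher and 2402 lower of the 11411 genes. Limma with voom weights called 8 members higher and 0 lower. The median log2 change was 0.23 over the members and -0.01 over all genes, with 41 of the 50 above 0. In 5 members all JQ1 libraries lay above all DMSO libraries and in none below, beside 12.2% and 16.4% of all genes.

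CCNF was at 23.4 and 21.4 RPKM in experiment 1 and 15.2 and 18.7 in experiment 2 with JQ1, against 14.4 and 13.2 RPKM in experiment 1 and 8.94 and 13.2 in experiment 2 with DMSO. PTTG1 was at 188.9 and 181.4 RPKM in experiment 1 and 163.6 and 152.2 in experiment 2 with JQ1, against 125.5 and 129.9 RPKM in experiment 1 and 91.7 and 120.6 in experiment 2 with DMSO. ESPL1 was at 11.7 and 9.63 RPKM in experiment 1 and 9.47 and 9.37 in experiment 2 with JQ1, against 7.42 and 8.61 RPKM in experiment 1 and 4.82 and 7.39 in experiment 2 with DMSO. In all 3 genes the JQ1 libraries lay above the DMSO libraries. The changes were 0.62 (log2, SE 0.15, limma adjusted p = 0.00366) for CCNF, 0.56 (log2, SE 0.13, limma adjusted p = 0.00384) for PTTG1 and 0.47 (log2, SE 0.13, limma adjusted p = 0.0105) for ESPL1. PTTG1 has near-identical copies, PTTG2 and PTTG3P, that the table also lists, so its reads may be shared among them. CCNF passed with and without any 1 of the 8 libraries, and so did PTTG1 and ESPL1 (highest adjusted p 0.0151, 0.0155 and 0.0409 by limma).

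KIF23 was at 51.4 and 52.8 RPKM in experiment 1 and 36.8 and 38.1 in experiment 2 with JQ1, against 34.0 and 30.2 RPKM in experiment 1 and 36.7 and 29.8 in experiment 2 with DMSO. DLGAP5 was at 98.1 and 115.0 RPKM in experiment 1 and 76.2 and 79.0 in experiment 2 with JQ1, against 52.9 and 57.7 RPKM in experiment 1 and 85.1 and 48.6 in experiment 2 with DMSO. CDCA8 was at 122.6 and 111.5 RPKM in experiment 1 and 104.9 and 94.95 in experiment 2 with JQ1, against 85.2 and 94.9 RPKM in experiment 1 and 77.8 and 89.99 in experiment 2 with DMSO. The JQ1 libraries were all above DMSO for KIF23 and CDCA8, and for DLGAP5 they overlapped with DMSO experiment 2 replicate 1. The changes were 0.43 (log2, SE 0.15, limma adjusted p = 0.0419) for KIF23, 0.60 (log2, SE 0.21, limma adjusted p = 0.0391) for DLGAP5, which organises the spindle, and 0.31 (log2, SE 0.09, limma adjusted p = 0.0151) for CDCA8. The remaining calls were KIFC1 (0.39, log2, SE 0.14, limma adjusted p = 0.0497) and KIF2C, a kinesin that shortens microtubules at centromeres (0.31, log2, SE 0.11, limma adjusted p = 0.0367). These 5 calls were less stable than the first 3 when 1 of the 8 libraries was left out: KIFC1 was lost in 7 of the 8 cases, KIF2C in 6, DLGAP5 and KIF23 in 5 each and CDCA8 in 2. The count of members called was 3 without DMSO experiment 1 replicate 1 or JQ1 experiment 1 replicate 1, and 4 without replicate 2 of experiment 1 of either group. In those fits 21.3% and 20.1%, then 21.5% (DMSO) and 22.5% (JQ1), of all genes were called.

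The other members of the cyclin and kinase roles did not pass. CDK1 was at 221.0 and 359.7 RPKM in experiment 1 and 195.8 and 211.0 in experiment 2 with JQ1 and 179.5 and 185.9 RPKM in experiment 1 and 319.0 and 136.0 in experiment 2 with DMSO, with 1 high library in each group. The log2 changes were 0.29 for CDK1, 0.10 for CCNA2, 0.13 for CCNB1, 0.19 for CCNB2 and 0.24 for CDC25B. PLK1 and AURKA were at -0.05 and -0.10, the kinase AURKB at 0.31 and BIRC5 at 0.24. The spindle checkpoint genes BUB1, BUB3 and MAD2L1 were at 0.30, 0.12 and 0.27, and CDC20 at 0.27. CENPE had the largest estimate of all members, 0.63, with a standard error of 0.33 and adjusted p = 0.182 by limma. UBE2C had the lowest, -0.21 (adjusted p = 0.0821 by limma). The other members lay from -0.07 (KIF22) to 0.47 (KIF11).

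The experiments gave unlike counts for JQ1. In experiment 1 alone 27 members rose and none fell, beside 13.3% of genes higher, and in experiment 2 alone none passed (2 members at an unadjusted p under 0.05 by limma), beside 3.55% of genes called and 0.825% higher. In experiment 1 the calls took in 7 of 10 kinesins, 5 of 7 genes of CDK1 regulation (CDK1, CCNA2, CCNB1, CCNB2 and CCNF) 4 of 7 genes of spindle assembly and cytokinesis, 3 of 5 checkpoint, 3 of 4 passenger and 3 of 7 kinetochore genes, 1 of 5 anaphase genes (PTTG1), 1 of 2 chromosome structure genes (TOP2A), neither PLK1 nor AURKA, and not FOXM1. The median change of the members was 0.33 in experiment 1 and 0.05 in experiment 2. The interaction of JQ1 with the experiment passed in 0 of 50 members (2 at an unadjusted p under 0.05 by limma), of 0.00876% of all genes. Over all genes the interaction reached that unadjusted threshold in 398 of 11411. Its median was -0.55 over the 18 members under 42% GC and -0.07 over the 16 at or above 50% GC, and without the 3 libraries of steep GC trend these medians were -0.16 and -0.21. The DMSO library of experiment 2 with the steep GC trend is 1 of the 2 controls there. Without the 3 libraries of steep trend 18 members were higher and 1 lower with JQ1, of 36.3% of genes called (15.1% higher and 21.2% lower). After removal of the trend with GC content from every library, an alternative added after seeing the data, 16 were higher, among them AURKB, BIRC5, CDC20, CDCA3, CENPE and KIF11, and UBE2C was lower, of 35.3% of genes called (14.7% higher and 20.6% lower).

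**Figure D4:**
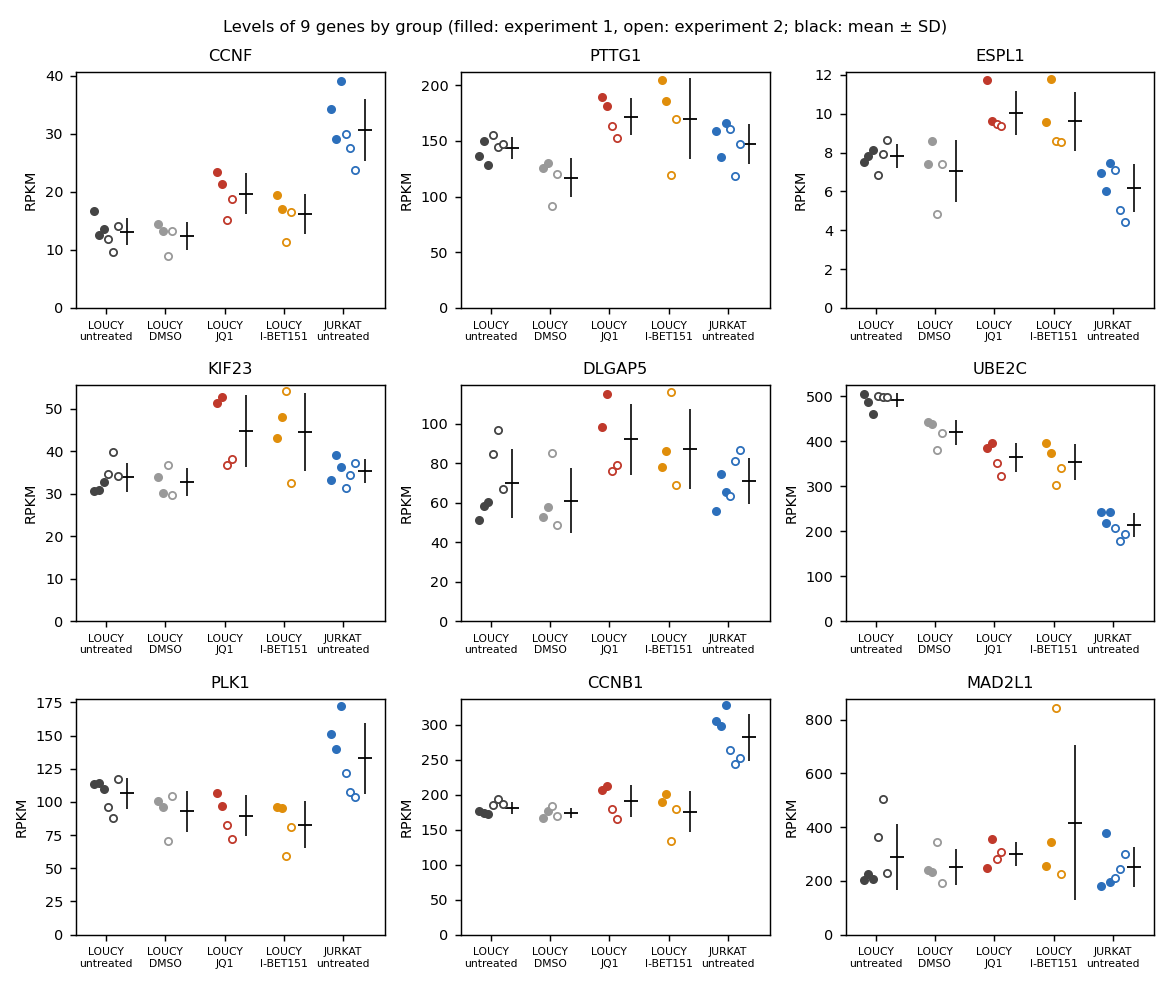
Levels of 9 genes in RPKM by group, each point 1 library (filled for experiment 1, open for experiment 2), with the mean and SD in black. CCNF, PTTG1 and ESPL1 with JQ1 lie above all DMSO libraries, UBE2C steps down from untreated LOUCY to I-BET151 and is lowest in JURKAT, and MAD2L1 has 1 I-BET151 library at 843.5 RPKM.

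With I-BET151, 4 members rose and 1 fell, against the same 4 DMSO libraries. ANLN, the anillin scaffold of the cleavage furrow, PTTG1, KIF23 and ESPL1 rose by 1.33 to 1.53 times, and UBE2C fell. Of the 11411 genes tested, 26.3% were called, 10.3% higher and 15.9% lower. At an unadjusted p under 0.05 by limma, 9 members were higher and 1 lower, beside 1850 higher and 2410 lower of the 11411 genes. Limma with voom weights called 4 members higher and 1 lower. The median log2 change was 0.18 over the members and 0.00 over all genes, with 40 members above 0, and in no member did the I-BET151 and DMSO libraries lie fully apart, beside 21.0% of all genes.

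ANLN was at 18.9 and 21.4 RPKM in experiment 1 and 28.2 and 15.1 in experiment 2 with I-BET151 and 12.2 and 11.9 RPKM in experiment 1 and 16.3 and 12.1 in experiment 2 with DMSO. PTTG1 was at 204.4 and 185.6 RPKM in experiment 1 and 119.7 and 169.4 in experiment 2 with I-BET151. UBE2C was at 395.8 and 372.7 RPKM in experiment 1 and 303.1 and 340.5 in experiment 2 with I-BET151. Against the DMSO values given above, 3 of the 4 I-BET151 libraries were higher for PTTG1, the exception being experiment 2 replicate 1, for ANLN 3 of the 4 were above every DMSO library, and for UBE2C the second experiment held the lowest values. The changes were 0.61 (log2, SE 0.18, limma adjusted p = 0.0156) for ANLN, 0.52 (log2, SE 0.13, limma adjusted p = 0.00638) for PTTG1 and -0.25 (log2, SE 0.09, limma adjusted p = 0.0338) for UBE2C. ESPL1 was at 9.56 and 11.8 RPKM in experiment 1 and 8.58 and 8.52 in experiment 2 with I-BET151, a change of 0.41 (log2, SE 0.13, limma adjusted p = 0.0246). KIF23 was at 43.2 and 48.0 RPKM in experiment 1 and 54.3 and 32.6 in experiment 2 with I-BET151, a change of 0.42 (log2, SE 0.15, limma adjusted p = 0.0476). In KIF23 and ANLN the highest I-BET151 value was that of the library of steepest GC trend. PTTG1 passed without any 1 of the 8 libraries (highest adjusted p 0.0278 by limma). ANLN was lost without I-BET151 experiment 2 replicate 1 (log2 change 0.46, adjusted p = 0.0569 by limma), ESPL1 in 3 of the 8 cases, UBE2C in 5 and KIF23 in 6.

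The remaining members did not pass. Their log2 changes were 0.27 for CDK1, 0.17 for CCNA2, -0.00138 for CCNB1, 0.09 for CCNB2 and 0.15 for CDC25B, -0.17 for PLK1, -0.12 for AURKA and 0.19 for AURKB. CCNF, called with JQ1, was at 0.35 with I-BET151 (adjusted p = 0.0899 by limma), and DLGAP5 at 0.52 (adjusted p = 0.0724). MAD2L1, the checkpoint protein that binds CDC20, was at 254.9 and 342.9 RPKM in experiment 1 and 843.5 and 226.4 in experiment 2, the highest value being in the library of steepest GC trend. Its change was 0.54 (SE 0.31) and 0.17 without that library. CENPA, CENPE and KIF11 also had their highest I-BET151 value there, with changes of 0.47, 0.61 and 0.50, and of 0.26, 0.26 and 0.21 without it. KIF22 had the lowest estimate, -0.27 (adjusted p = 0.159 by limma), and the members without a value here lay between it and CENPE. In experiment 1 alone 17 members rose, beside 10.7% of genes higher, and in experiment 2 alone none passed (1 at an unadjusted p under 0.05 by limma), beside 4.14% of genes called. Without the 3 libraries of steep GC trend 9 members were higher and 1 lower, of 29.8% of genes called. The count of members called was 3 without either DMSO library of experiment 1, 2 without I-BET151 experiment 1 replicate 2 and 12 without I-BET151 experiment 2 replicate 2, in fits that called 22.2%, 21.7%, 21.2% and 28.0% of all genes. In a fit of these 2 groups alone 0 members passed (5 at an unadjusted p under 0.05 by limma), of 14.2% of genes called.

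**Figure D5:**
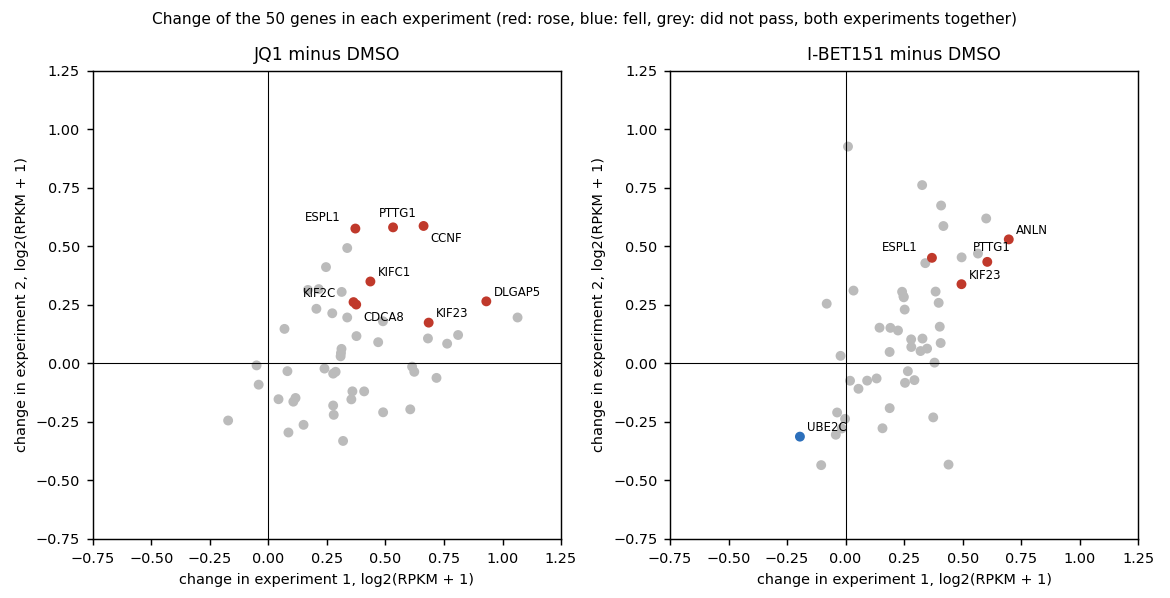
Change of each of the 50 genes against DMSO in experiment 1 (horizontal axis) and experiment 2 (vertical axis), in log2(RPKM + 1), for JQ1 (left) and I-BET151 (right). Red genes rose and blue fell over both experiments together. With JQ1 most points lie right of 0 and spread around 0 vertically, and all 8 called genes lie above 0 in both experiments.

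PTTG1, ESPL1 and KIF23 passed with both compounds, and the 2 comparisons share their DMSO libraries. The doses differed (250 nM JQ1 and 500 nM I-BET151), so the compounds were not matched. Set directly against each other, they differed in 0 of 50 members by limma (0 at an unadjusted p under 0.05, 0 with voom weights) and in 0.0% of all genes. Of the 11411 genes tested, 531 had an unadjusted p under 0.05 by limma. Without the 3 libraries of steep GC trend 0 of 50 members passed (2 at an unadjusted p under 0.05 by limma), of 0.00885% of genes. The log2 differences, JQ1 minus I-BET151, ran from -0.28 to 0.28, and their 95% intervals from -0.94 to 0.72, with a median half-width of 0.306. The ends of that range were those of MAD2L1 (-0.94) and CENPE (0.72), and the half-widths ran from 0.179 to 0.699 over the members. Each interval bounds the difference of its own member alone, with 4 libraries per group. Side by side, the log2 changes with JQ1 and I-BET151 were 0.56 and 0.52 for PTTG1, 0.47 and 0.41 for ESPL1, 0.43 and 0.42 for KIF23, 0.62 and 0.35 for CCNF, 0.42 and 0.61 for ANLN and -0.21 and -0.25 for UBE2C.

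Other genes of division gave calls in both directions under the inhibitors. Of 58 other mitotic genes 8 rose and 3 fell with JQ1, and 8 rose and 2 fell with I-BET151. TUBB4B, a beta tubulin, was at 1.03 and 0.72, CENPN at 0.45 and 0.45, TRIP13 at -0.63 and -0.45 and MAD2L2 at -0.54 and -0.55 (log2 changes with JQ1 and I-BET151, all past the threshold). Of 16 genes of the anaphase-promoting complex and its partners 3 rose and 1 fell with JQ1, and 2 rose and 1 fell with I-BET151. ANAPC11 was at 0.57 and 0.59 and ANAPC16 at 0.45 and 0.57, CDC26 fell with JQ1 (-0.45) and ANAPC7 with I-BET151 (-0.38). Of 20 condensin and cohesin genes 3 rose with JQ1, with NCAPD2 at 0.46 and NCAPH2 at 0.41, and 4 with I-BET151, with ESCO2 at 0.79 and NCAPD3 at 0.36, and none fell (1 and 0 lower at an unadjusted p under 0.05 by limma).

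Among regulators and inhibitors of the cycle, MYBL1 and CDKN1A rose with both compounds. Of 22 DREAM and MuvB regulators tested 3 rose and 3 fell with JQ1, and 2 rose and 2 fell with I-BET151. MYBL1 (A-MYB) rose by 1.24 and 1.37 and E2F7 by 0.56 and 0.59, and E2F8 was at -0.82 and -0.74 and E2F3 at -0.54 and -0.60. MYBL2 and E2F1 did not pass (-0.03 and 0.15 with JQ1, -0.13 and 0.21 with I-BET151). CDKN1A, the CDK inhibitor p21, rose by 2.04 and 1.91, from 5.47 RPKM with DMSO to 25.4 and 23.3. CDKN2D rose by 1.07 and 0.92, and 3 of the 5 CDK inhibitor genes tested rose with each compound. Of 26 G1 and S phase genes 3 rose and 1 fell with JQ1 and 2 rose and 2 fell with I-BET151. TK1 rose by 1.04 and 0.95, RRM2 by 0.58 with JQ1 and SLBP by 0.77 with I-BET151, while POLE2 was at -0.85 and -0.66 and CDC25A at -0.40 with I-BET151.

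Markers of cell identity moved beside these genes. Of 8 T-cell markers tested 5 fell with each compound (LCK at -2.12 and -2.07, CD3D at -0.79 and -0.80, as log2 changes), and PTPRC rose with I-BET151 (0.41). Their summed level was 1716 to 2114 RPKM with DMSO, 1168 to 1230 with JQ1 and 1016 to 1312 with I-BET151. Of 17 markers of other cell types 11 were listed and 4 tested, and 3 fell with each compound, among them PECAM1 (-2.51 and -2.42) and MPO (-1.28 and -1.43). Their summed level was 283.6 to 522.4 RPKM with DMSO, 204.1 to 301.4 with JQ1 and 147.1 to 309.7 with I-BET151, nearly all of it CD79A, and 26.2 to 32.3, 4.84 to 6.32 and 5.60 to 6.80 RPKM without CD79A. In untreated cells that list summed to 357.1 to 620.3 RPKM in LOUCY and 28.4 to 41.9 in JURKAT (28.3 to 37.3 and 15.4 to 19.9 without CD79A), and 3 of its 4 tested genes were higher in LOUCY (MPO by 2.31) and KRT18 lower (-2.47). The T-cell list summed to 1987 to 2556 RPKM in LOUCY and 1525 to 1953 in JURKAT. Of its 12 genes 5 were higher in LOUCY, among them CD7 and PTPRC (the latter at 1.56), and 6 lower, among them CD2 (-5.89) and CD5 (-2.53). No listed marker was at 0 in every library of a group. The part of these changes in the results for the members was not tested.

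Between the experiments the members split by GC content. In untreated LOUCY, experiment 2 against experiment 1 was called in 2 members by limma, NUF2 (0.77, adjusted p = 0.0364) and KIF14, a kinesin of cytokinesis (0.53, adjusted p = 0.0378), of 4.07% of genes called. NUF2 ranged from 62.3 to 66.5 RPKM in experiment 1 and from 87.8 to 131.1 in experiment 2. Both calls were lost without any 1 of the other 5 libraries, untreated LOUCY experiment 2 replicate 3 excepted, without which 18 members were higher and 5 lower, of 30.8% of genes called. In JURKAT 0 of 50 passed (15 at an unadjusted p under 0.05 by limma), of 0.184% of genes. Of the 11978 genes tested in JURKAT, 2116 had an unadjusted p under 0.05 by limma. The 18 members under 42% GC had a median log2 difference of 0.53 in LOUCY and 0.22 in JURKAT, and the 16 members at or above 50% GC had -0.07 and -0.27. Across the 50 members, which share libraries, the difference ran with GC at Pearson's r of -0.75 in LOUCY and -0.83 in JURKAT, given as a description. Expressed genes in general also showed such a trend. Their GC trend in untreated LOUCY libraries ran from 0.061 to 0.138 in experiment 1 and from -0.227 to 0.051 in experiment 2. In JURKAT it ran from -0.068 to 0.136 and from -0.12 to 0.043, with overlap. For the other comparisons r was -0.25 between the lines, -0.33 with DMSO, -0.12 with JQ1, -0.41 with I-BET151 and 0.53 for JQ1 against I-BET151. Without the 3 libraries of steep GC trend these were -0.18, 0.23, -0.55, -0.23 and -0.64. The sign turned for DMSO against untreated LOUCY and for JQ1 against I-BET151 only. With JQ1 r was -0.48 within experiment 1 and 0.32 within experiment 2.

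Some members rest on reads that may not all be theirs. The libraries carry no strand mark, and exons of 19 members overlap a gene on the other strand in the GENCODE v29 annotation of GRCh38, among them CCNF, PLK1, CCNA2, NUF2, SPC24, KIF23, ANLN, HMMR and FOXM1. Named pseudogenes exist for 8 members (CCNB2, AURKA, BUB1, BUB3, CDC20, UBE2C, DLGAP5 and MKI67), and KIF4A has the near-identical copy KIF4B.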

How the data were processed

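RNA sequencing of 24 libraries was deposited by the authors as 1 table of RPKM values (reads scaled by gene length and library size) for 15862 genes. Per the labels' protocols the libraries were made by the Smart-seq2 method with oligo-dT priming and Nextera XT, which keeps no strand. The submitters' processing notes name STAR 2.5.1b, Subread 1.4.5-p1 with featureCounts, edgeR 3.10.5 and the build hg38. No source used here gives the annotation or gene lengths behind them.

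The RPKM steps gave whole reads, within 0.01 reads, for 100% of genes, each of which was above 0 in at least 6 libraries, and these reads served for depth, a comparison of replicates and a voom alternative. Libraries of 1 group and experiment differed by more than sampling noise (chi-square per degree of freedom 1.69 to 54.6 over 18 pairs), so none was taken for a library deposited again. This does not show that they came from separate cultures. Counting limits how far low genes such as SPC24 can be read, and the intervals given cover the spread between libraries.

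Levels were tested as log2(RPKM + 1) with limma 3.58.1 (R 4.3.3, trended prior variance) on genes that reached 1 RPKM in 4 or more libraries of a fit. The untreated fit held 12 libraries and 11978 genes, and the LOUCY fit 18 libraries and 11411 genes. Each had a term for the experiment, and p-values were adjusted by Benjamini-Hochberg over all genes tested. Fold changes are on the log2(RPKM + 1) scale, which understates changes of low genes. The code was tested on simulated data.

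The members and lists were chosen with earlier results of these data known. Named genes were a fixed panel of members, the members with the largest called changes, every called member where 8 or fewer were called, up to 2 genes per direction of each other list with the smallest adjusted p, and CDKN1A, MYBL2 and E2F1. Alternatives were a pseudocount of 0.1, no filter, another scaling, voom weights, no experiment term, the 2 groups alone, a replicate block, each experiment alone, each library left out and the 3 libraries of steep GC trend left out. Removing the GC trend, and leaving out those 3 libraries in the comparisons of experiments, were added after seeing the data. Promoter windows came from RefSeq (GRCh38.p14), and gene GC content, antisense overlaps and pseudogenes from GENCODE v29 on GRCh38.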

Additional observations from a re-analysis of the deposited data

Results flagged for a closer look

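Each member's level in each of the 5 groups was checked for 1 library far from the others by Dixon's criterion, 250 checks in all, and 12 were past it. Chance passes about 1 in 20 such checks, and the 12 flagged are near that share. That rate is a rough guide here, since the members share libraries and each group pools both experiments.

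A single library, DMSO experiment 2 replicate 1, held 8 of the 12, and it is 1 of the 3 libraries of steep GC trend. It was high for BUB1 at 140.2 RPKM (others 89.8 to 95.1), BUB3 at 316.9 (222.6 to 230.1) and TTK at 90.2 (43.0 to 47.4), 3 genes of the spindle checkpoint. It was also high for INCENP at 3.56 RPKM (others 1.98 to 2.06), NUF2 at 112.2 (62.8 to 70.5) and ANLN at 16.3 (11.9 to 12.2). It was low for CDC20, the activator of the anaphase-promoting complex, at 99.4 RPKM (others 146.9 to 155.2) and for the kinesin KIF22 at 115.7 (154.5 to 161.0). The part of GC content in these values was not tested.

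With JQ1, CDK1 was at 359.7 RPKM in experiment 1 replicate 2 (others 195.8 to 221.0) and ESPL1 at 11.7 RPKM in experiment 1 replicate 1 (others 9.37 to 9.63). In untreated LOUCY experiment 2 replicate 3, AURKB was at 149.5 RPKM (others 125.3 to 130.5) and SPC24 at 25.05 RPKM (others 16.8 to 19.8).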

How the results depend on the processing

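No called result changed direction under the alternatives run. The count of members called between the lines (28) was 14 within experiment 2 alone. The JQ1 count (8) was 5 with no filter on low values, 5 with no experiment term, 17 with the GC trend removed, 19 without the 3 libraries of steep GC trend, 27 within experiment 1 alone and 0 within experiment 2 alone. It ranged from 3 to 7 when each library was left out. With no filter 1140 genes were higher and 1758 lower with JQ1 (of 15862), and with no experiment term 991 and 1628 (of 11411). The I-BET151 count (5) was 3 with no experiment term, 10 with the GC trend removed, 10 without the 3 libraries, 17 within experiment 1 alone, 0 within experiment 2 alone and 0 in a fit of the 2 groups alone, and it ranged from 2 to 12 when each library was left out. With no experiment term 1008 genes were higher and 1609 lower with I-BET151, and with the GC trend removed 1765 and 2274 (of 11411). The count between experiments in untreated LOUCY (2) was 0 without the 3 libraries and ranged from 0 to 23 when each library was left out. In JURKAT it ranged from 0 to 1, the 1 without experiment 1 replicate 2. In that JURKAT fit 28 genes were higher and 39 lower, of 11913. In LOUCY without the 3 libraries 10 genes were higher and 13 lower, of 11911. Within 1 experiment fewer libraries enter the fit. The cause of the changes in count was not tested, for single experiments or for the other alternatives.

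With the replicate block the counts were 26 between the lines, 7 with JQ1, 4 with I-BET151, 0 with DMSO and 0 between the compounds. Over all genes in these fits, 4155 were higher and 4410 lower between the lines (of 11978). With JQ1 1099 genes were higher and 1737 lower (of 11411), with I-BET151 1137 and 1746 and with DMSO 1 and 3. Between the compounds 0 genes were called. Correlations of same-numbered deviations ran from -0.359 to 0.204 between the lines, -0.548 to 0.215 for DMSO and untreated, -0.160 to -0.002 for JQ1 and DMSO, 0.018 to 0.697 for I-BET151 and DMSO and -0.234 to 0.228 for the compounds. No comparison had every correlation over 0.1, and the numbers were not treated as pairs. With 2 libraries per group and experiment both correlations are the same value, so this does not show that nothing is shared: the 0.697 is of experiment 2, where replicate 1 of I-BET151 and of DMSO had GC trends of -0.313 and -0.281 and replicate 2 of 0.155 and 0.13. The 2 libraries per group and experiment limit the inhibitor results.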
